A study of Mus musculus with 8 samples.

Results

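Cd44, Eng, Vcam1, Alcam, Nes and Cd81, genes whose products are used to recognise mesenchymal stem cells (MSC), were followed in marrow MSC of 2 mouse strains. They were 6 of 8102 named genes, read by every probe of the deposited table whose identifier carries the gene's numeric gene ID, which gave 8 probes of 46628. Cd44 and Nes had 2 probes each and the other genes 1 each. The arrays held RNA of 8 cultures of bone marrow MSC. The 4 NOD cultures came from a strain that develops autoimmune diabetes, taken while blood glucose was normal, and the 4 BALB/c cultures came from mice of the same age of a strain that does not, which the study set as the reference. Marrow of at least 5 mice went into a preparation and cells were used at passage 4, per the series text, although each sample is titled as 1 mouse. The series text numbers NOD as samples 1 to 4 and BALB/c as 5 to 8, opposite to the order in which the samples are listed, and strains were taken from the sample labels, which the column names of the table match. No array is labelled as treated with interleukin-1 beta, a step the series text also describes, and no genetic change or agent is given for either strain. The series text calls the 4 cultures of a strain different ones without saying whether each had its own marrow pool, so p-values measure the spread between these 8 cultures.

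The 6 products sit at different places in the cell. CD44 is a surface receptor for the matrix sugar hyaluronan. Endoglin (Eng, CD105) is a co-receptor for ligands of the TGF-beta and BMP family, and VCAM-1 is an adhesion molecule that holds leukocytes and blood stem cells through the integrin alpha-4 beta-1. ALCAM (CD166) binds itself on neighbouring cells and CD6 on T cells. CD81 is a tetraspanin, a membrane protein that groups other receptors. Nestin is an intermediate filament inside the cell, not a surface protein, and marks a population of marrow stromal cells near blood vessels. CD44, endoglin, VCAM-1 and CD166 are standard flow cytometry markers of MSC, but CD44, VCAM-1, CD166 and CD81 are also made by cells of the blood lineage, and endoglin and VCAM-1 by endothelium.

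Levels are normalized log2 intensities, and a probe counted as detected on an array where its deposited detection p-value was under 0.05. Correlations between arrays across the 17766 tested probes were 0.927 to 0.985 within NOD and 0.842 to 0.983 within BALB/c, and 0.811 to 0.906 between the strains. BALB/c cultures 2 and 3 each correlated best with a NOD culture, so results that rest on them are given with and without them. Raw median signal was 68.7 to 78.6 on NOD arrays and 56.5 to 74.9 on BALB/c arrays. Of 6 stromal marker genes with a probe, 5 or 6 were detected on each NOD array and 5 on each BALB/c array. Of the other MSC surface markers with a probe, Itgav and Cd276 were detected on all 8 arrays and Ngfr on none. The niche factor Cxcl12 was detected on none either. Such detection does not measure how pure a culture was. The endothelial markers Pecam1 and Emcn were detected on none of the 8 arrays. Nor were the leukocyte genes Ptprc, Itgam and Cd3e. The summed intensity of all 7 leukocyte markers with a probe, in the authors' normalized units, was 737 to 939 in the NOD cultures. In the BALB/c cultures it ran from 774 to 3813, with 3813 in culture 2 and 2748 in culture 4. In culture 2 only Lyz2 and Cd68 were detected, at log2 levels of 11.42 and 6.89, so its sum rested mainly on Lyz2. In culture 4, 4 of the 7 were detected, with Lyz2, Cd68, Cd53 and Csf1r at 9.85, 9.09, 8.90 and 6.66. Csf1r was detected on no other array.

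Vcam1 was the 1 member called between the strains. It was 2.20-fold higher in NOD MSC (95% confidence interval 1.62 to 3.00). The differences of Alcam, Nes and Cd44 were positive and those of Eng and Cd81 negative, but none of these passed the test, and Cd44 was close to the background on most arrays. Of the 6 tested probes, 1 was called higher and none lower, against 8.51% of all tested probes called in either direction, 4.16% called higher and 4.35% called lower. By named genes, each read by its brightest probe, these shares were 9.1% in either direction, 4.15% higher and 4.95% lower. The median difference of the 6 was 0.33, against 0.0033 over all tested probes. The test was limma's, with Benjamini-Hochberg adjustment over all 17766 probes.

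**Figure D1:**
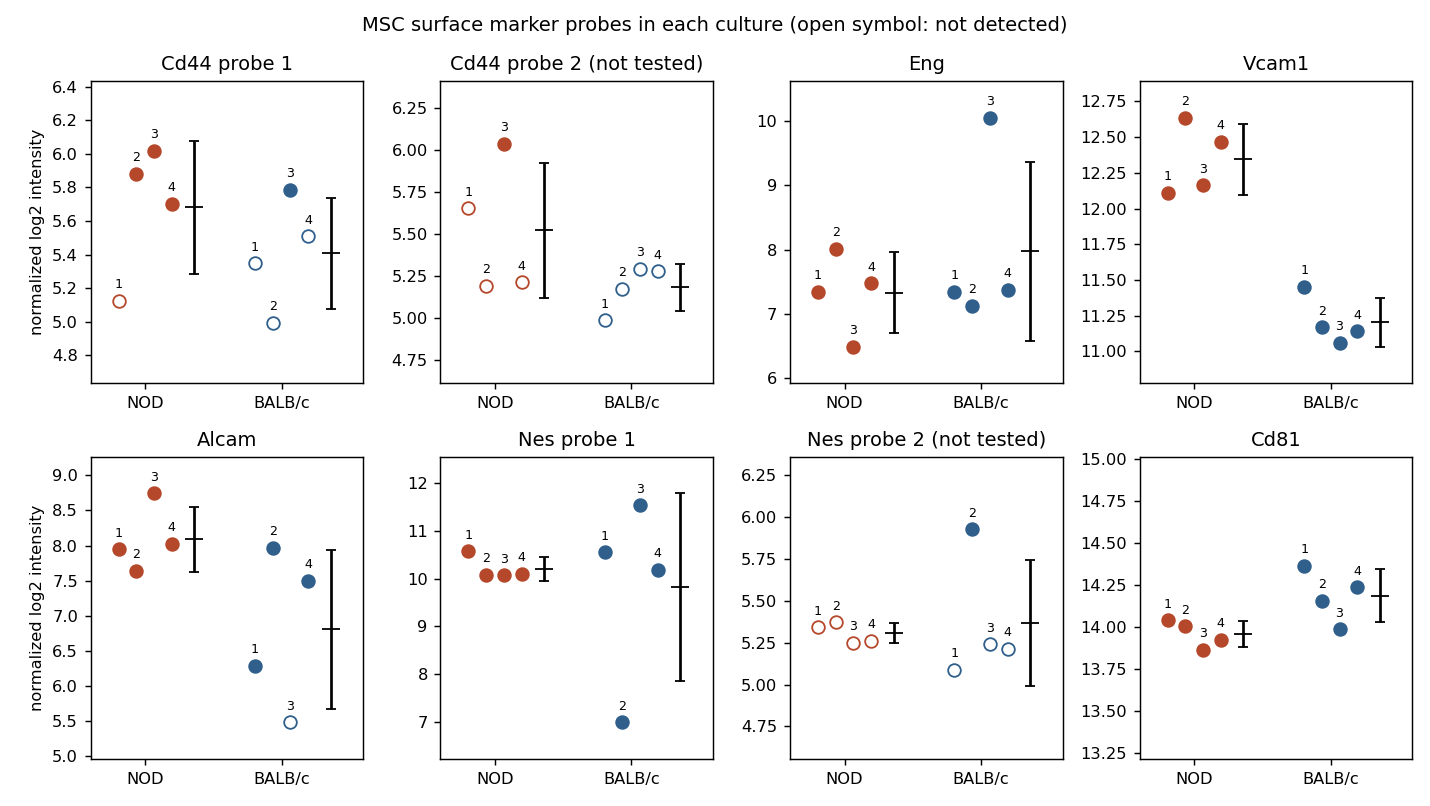
Normalized log2 intensity (vertical axes, each with its own range) of the 8 probes in each culture of NOD (red, left) and BALB/c (blue, right), numbered by culture. Bars give mean and SD of 4 cultures, and open symbols mark arrays on which the probe was not detected. Only the Vcam1 panel has strains that do not overlap, and single BALB/c cultures stand apart for Eng (culture 3) and Nes (culture 2).

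Vcam1 read 12.11, 12.64, 12.16 and 12.47 in NOD cultures 1 to 4, against 11.45, 11.17, 11.06 and 11.14 in BALB/c cultures 1 to 4. The strains did not overlap, and the lowest NOD culture lay above the highest BALB/c culture. Such separation in either direction was seen in 17.2% of all tested probes, and with NOD on top in 7.93%. The raw signals were 4575, 6683, 6379.6 and 6408 in NOD cultures 1 to 4 and 2302, 2421, 1988 and 1829 in BALB/c cultures 1 to 4. The separation was thus visible before any normalization. Vcam1 averaged 12.34 ± 0.25 in NOD and 11.20 ± 0.17 in BALB/c (SD, n = 4 each), a difference of 1.14 ± 0.20 (SE), and limma's adjusted p was 0.00946. Its BALB/c spread was small, since 91.0% of the tested probes had a larger SD there.

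The size of the Vcam1 difference kept within 1.04 to 1.23 in all 20 other ways of processing. The call was lost without NOD culture 4 (1.10, adjusted p = 0.0578), while the differences without 1 of the other cultures all passed limma's test. Without BALB/c cultures 2 and 3 together it was 1.06 (adjusted p = 0.0111). Without BALB/c cultures 2 and 4, those with the most leukocyte marker signal, the difference was 1.08 but missed the threshold (adjusted p = 0.0534). In whole cultures more cells that express a gene and more RNA per cell cannot be told apart, and this holds for every member. A sequence difference between the strains under the Vcam1 probe was not tested.

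Itga4, the alpha-4 chain of the integrin that VCAM-1 binds, was detected on none of the 8 arrays by its 1 named probe. Of 14 genes listed for that integrin and for the NF-kB pathway that switches Vcam1 on, 3 had a named probe and 1 could be tested. This was the tumour necrosis factor receptor gene Tnfrsf1a, which read 12.31 ± 0.14 in NOD and 12.48 ± 0.33 in BALB/c (difference -0.17, limma's adjusted p = 0.654). The named genes whose pattern over the 8 arrays lay closest to that of Vcam1 were Prrx1 and Mok. Likeness was the root mean square difference after each gene's mean over the 8 arrays was removed. It was 0.17 for Prrx1 and 0.20 for Mok, among 4219 other named genes. Prrx1, a transcription factor of limb and craniofacial mesenchyme, read 11.05, 11.54, 11.04 and 11.18 in NOD cultures 1 to 4 and 10.17, 10.08, 9.56 and 10.22 in BALB/c cultures 1 to 4. Its difference was 1.19 (adjusted p = 0.0129), and its other tested probe gave 1.36 (adjusted p = 0.00753). Because Prrx1 was chosen for its likeness to Vcam1, a rise like that of Vcam1 follows from the choice. Prrx1 lost its call without NOD culture 4 (1.20, adjusted p = 0.0616), as Vcam1 did. In that setting the called probes of the whole series fell from 1512 to 460, the fewest of any setting.

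**Figure D2:**
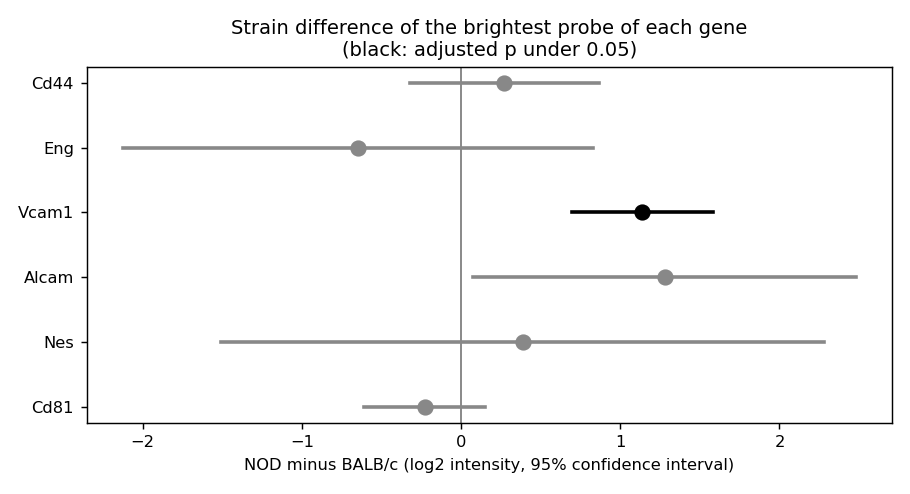
NOD minus BALB/c difference in log2 intensity (horizontal axis) of the brightest probe of each gene, with its 95% confidence interval. The interval of Vcam1 (0.69 to 1.58) lies well above 0, that of Alcam (0.08 to 2.48) only just, and those of Cd44, Eng, Nes and Cd81 span 0.

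Alcam read 7.95, 7.64, 8.74 and 8.03 in NOD cultures 1 to 4, against 6.29, 7.97, 5.49 and 7.50 in BALB/c cultures 1 to 4. All 4 NOD arrays detected it and 3 of 4 BALB/c arrays did, with culture 3 below detection. BALB/c culture 2 lay within the NOD range and the other BALB/c cultures lay below every NOD culture, culture 4 only just, so the strains overlapped. The means were 8.09 ± 0.47 in NOD and 6.81 ± 1.13 in BALB/c (SD, n = 4 each). The difference of 1.28 ± 0.53 (SE), or 2.43-fold, did not pass limma's test (adjusted p = 0.174, unadjusted 0.0395). Leaving out BALB/c culture 2 brought it to 1.67 (adjusted p = 0.0424). Leaving out BALB/c cultures 2 and 4 brought it to 2.22, or 4.67-fold (adjusted p = 0.0220), and leaving out cultures 2 and 3 to 1.20 (adjusted p = 0.0573). Without BALB/c culture 3 it was 0.84 (adjusted p = 0.248), since that culture is the lowest.

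The 2 BALB/c cultures with most Alcam were also those with most leukocyte marker signal. Lyz2, the macrophage lysozyme gene, read 5.57, 4.92, 8.08 and 6.66 in NOD cultures 1 to 4, against 7.36, 11.42, 5.20 and 9.85 in BALB/c cultures 1 to 4. It thus ranked the BALB/c cultures in the same order as Alcam did. The macrophage gene Cd68 was detected on no NOD array and read 7.93, 6.89, 6.02 and 9.09 in BALB/c cultures 1 to 4, highest in culture 4. Neither passed limma's test (adjusted p = 0.331 for Lyz2, with a difference of -2.15, and 0.0615 for Cd68). Cd68 passed the detection filter through BALB/c alone. Its adjusted p was 0.169 without that filter and 0.279 when no detection p-value was set to 0. The Lyz2 difference was -1.17 without BALB/c culture 2 and -3.25 without culture 3. Of the 7 leukocyte markers with a probe, 1 or 2 were detected per NOD array and 2 to 4 per BALB/c array. BALB/c culture 2 had 2 of them detected, as culture 3 did, and Cd53 was lower there than in any other culture (5.05). The part of blood cells in the Alcam levels was not tested.

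**Figure D3:**
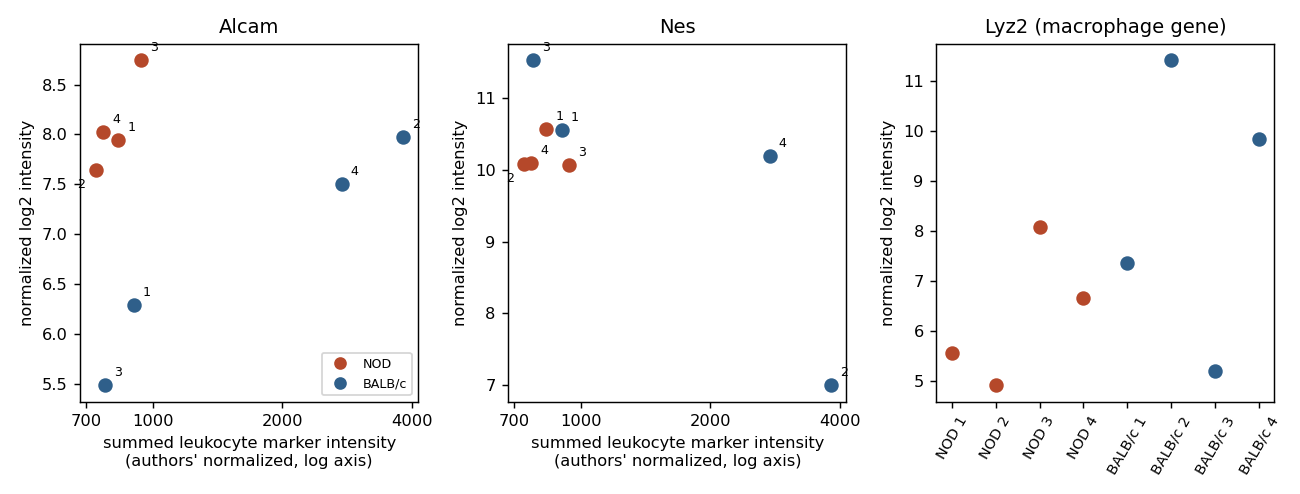
Normalized log2 intensity of Alcam (left) and Nes (middle) against the summed intensity of 7 leukocyte markers in the authors' normalized units (log axis), and of Lyz2 by culture (right), for NOD (red) and BALB/c (blue) cultures. BALB/c cultures 2 and 4, at 3813 and 2748, stand apart on the marker axis, and culture 2 has the lowest Nes level of the 8.

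Nes varied more within BALB/c than any other member did in either strain. Its brighter probe read 10.57, 10.08, 10.07 and 10.10 in NOD cultures 1 to 4, against 10.55, 6.99, 11.53 and 10.19 in BALB/c cultures 1 to 4. The NOD cultures were within 1.42-fold of each other, while the BALB/c cultures ran over a 23.25-fold range, from culture 2 at the bottom to culture 3 at the top. Only 1.09% of the tested probes had a larger SD among the BALB/c cultures, and 59.8% had a larger SD among the NOD cultures. The raw signals showed the same, with 1626, 1299, 1466 and 1293 in NOD cultures 1 to 4 and 1247, 185, 2678 and 909 in BALB/c cultures 1 to 4. All 8 arrays detected the probe.

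The mean of Nes was 10.20 ± 0.25 in NOD and 9.82 ± 1.97 in BALB/c (SD, n = 4 each), and the difference of 0.39 ± 0.83 (SE) was not called (limma's adjusted p = 0.804). Its 95% confidence interval ran from a 0.352-fold to a 4.86-fold level in NOD relative to BALB/c, so a change of several-fold in either direction was not detectable with these cultures. The sign rested on BALB/c culture 2: without it the difference was -0.55 (adjusted p = 0.253). BALB/c culture 2 also had the highest Lyz2 level of the 8 cultures, and its leukocyte marker sum, the highest too, rested mainly on Lyz2. Whether this goes with its low Nes level was not tested. The second Nes probe was near background, detected only in BALB/c culture 2 at a raw signal of 114, where the first probe was lowest. It read 5.34, 5.37, 5.25 and 5.26 in NOD cultures 1 to 4 and 5.09, 5.92, 5.24 and 5.21 in BALB/c cultures 1 to 4, and did not enter the test. The named genes closest to Nes over the 8 arrays were Kirrel3 (root mean square difference 0.41) and Tfap2a (0.42). Both were low in BALB/c culture 2 as well, at 5.61 and 5.32, which follows from choosing them by that pattern.

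Of 12 genes listed for other intermediate filaments and the proteins that bind them, 8 had a named probe. Lmna, Plec and Synm could be tested, for nuclear lamin A/C, the cross-linker plectin and synemin, a filament protein. Their differences were 0.62, 0.17 and 0.41, and none was called (limma's adjusted p 0.299 to 0.724). The glial filament Gfap, the neuronal filament Prph and the epithelial keratins Krt8 and Krt19 were detected on none of the 8 arrays. Krt18 was detected on no NOD array and on 2 of 4 BALB/c arrays.

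Eng read 7.34, 8.01, 6.49 and 7.47 in NOD cultures 1 to 4, against 7.34, 7.13, 10.05 and 7.37 in BALB/c cultures 1 to 4. BALB/c culture 3 stood apart and the other 7 cultures lay within the range 6.49 to 8.01. In raw signal culture 3 had 1024, whereas NOD had 169 to 355 and the other BALB/c cultures 148 to 197. All 8 arrays detected Eng. The means were 7.33 ± 0.63 in NOD and 7.97 ± 1.39 in BALB/c (SD, n = 4 each), and the difference of -0.65 ± 0.65 (SE) was not called (limma's adjusted p = 0.569). Without BALB/c culture 3 the difference was 0.047 (adjusted p = 0.944), so its sign rested on that culture. The same culture had the highest Nes and the lowest Alcam level of the 8, and its leukocyte marker sum of 774 was the lowest among BALB/c cultures. The endothelial markers Pecam1 and Emcn were not detected there either, and their summed intensity of 157, against 110 to 137 in the other BALB/c cultures and 111 to 126 in NOD, was at background. The genes most like Eng over the 8 arrays were Cxcl16 and Zfp184 (root mean square difference 0.38 and 0.39). Both were highest in BALB/c culture 3, which follows from choosing them by that pattern.

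Among the receptors and ligands that endoglin works with, calls fell to the signalling receptor and a ligand. Of 20 listed genes 9 had a named probe and all 9 were tested. Of these, 2 rose and none fell, against 4.15% of named genes called higher and 4.95% called lower, and the median difference was 0.53, against 0.0033 over all tested probes. Tgfbr1, the type I receptor that passes on the TGF-beta signal, read 11.91, 12.35, 12.95 and 12.46 in NOD cultures 1 to 4. In BALB/c cultures 1 to 4 it read 10.69, 10.26, 10.52 and 11.40, below every NOD culture. It was 3.25-fold higher (limma's adjusted p = 0.0119), and the call was lost without NOD culture 4 (1.68, adjusted p = 0.0575). The ligand gene Tgfb3 was 2.85-fold higher (adjusted p = 0.0321), a call lost without any 1 of NOD cultures 1 to 4 or BALB/c cultures 1 and 4 (differences 1.41 to 1.65, adjusted p 0.0582 to 0.112) and without the detection filter (adjusted p = 0.0873). Tgfb2 and the co-receptor gene Tgfbr3 had differences of 0.80 and 0.75 with strains that did not overlap, but were not called (adjusted p = 0.0643 and 0.0805). The type II receptor gene Tgfbr2 had a difference of -0.0053 and the target gene Id3 one of -0.37, and neither passed the test.

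Cd81 was the steadiest member. It read 14.04, 14.00, 13.86 and 13.92 in NOD cultures 1 to 4, against 14.36, 14.16, 13.99 and 14.24 in BALB/c cultures 1 to 4. The raw signal was 15850 to 18889 in NOD and 13907 to 20849 in BALB/c, below the brightest signals on the arrays, 23696 to 31590. The means were 13.96 ± 0.08 in NOD and 14.19 ± 0.16 in BALB/c (SD, n = 4 each), and the strains overlapped through BALB/c culture 3. The difference of -0.23 ± 0.17 (SE) was not called (limma's adjusted p = 0.432). Its 95% confidence interval, a 0.656-fold to 1.11-fold level in NOD relative to BALB/c, leaves out any change of 2-fold. No alternative turned its sign.

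Other tetraspanins moved in both directions. Of 28 listed tetraspanins and partners, 8 had a named probe and were tested, of which 1 rose and 1 fell (median difference 0.37), against 4.15% of named genes called higher and 4.95% called lower. Tspan18 read 7.96, 8.00, 8.19 and 7.84 in NOD cultures 1 to 4 and was not detected on any of the BALB/c arrays, where it read 4.84 to 5.13. As processed here it was at least 5.28-fold higher in NOD (limma's adjusted p = 1.86e-05). This bound is set against the detection edge, the dimmest detected signal above every undetected probe of an array, and was not kept under other processing. Tspan18 passed the detection filter through NOD alone, and was called without that filter too (adjusted p = 1.62e-05). With any 1 NOD culture left out it missed the filter, so that was not tested. Its other tested probe gave 2.19 (adjusted p = 0.00753) but likewise passed the filter through NOD alone. The first probe gave 0.53 (adjusted p = 0.000910) when no detection p-value was set to 0 before background correction. Cd151, a tetraspanin that travels with laminin-binding integrins, read 11.56, 11.23, 11.12 and 11.27 in NOD cultures 1 to 4, against 12.12, 12.58, 12.27 and 12.39 in BALB/c cultures 1 to 4. It was 2.07-fold lower in NOD (adjusted p = 0.0114), and the call was lost without NOD culture 4 (-1.04, adjusted p = 0.0638) and without BALB/c cultures 2 and 4 (-0.89, adjusted p = 0.0596). Its other tested probe had the same difference of -1.05 but was not called (adjusted p = 0.0634). The leukocyte tetraspanin gene Cd53 was detected on all 4 NOD and 3 of 4 BALB/c arrays and was not called (difference 0.88, adjusted p = 0.517). It read 8.25, 8.17, 7.32 and 7.61 in NOD cultures 1 to 4 and 5.87, 5.05, 8.00 and 8.90 in BALB/c cultures 1 to 4, while Ptprc, the common leukocyte antigen, was not detected on any array.

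Cd44 gave no clear level on these arrays. Its first probe read 5.12, 5.88, 6.02 and 5.70 in NOD cultures 1 to 4, against 5.35, 4.99, 5.79 and 5.51 in BALB/c cultures 1 to 4. It was detected on 3 NOD arrays and 1 BALB/c array, and so reached the test only at its minimum of 4 arrays. Raw signals were 71.2, 115, 135 and 98.3 in NOD and 63.5, 61.2, 89.0 and 66.5 in BALB/c cultures 1 to 4, and the detection edge of an array was 93.1 to 117 in NOD and 69.5 to 101 in BALB/c. The difference of 0.27 ± 0.26 (SE) was not called (limma's adjusted p = 0.550). The second probe was detected only in NOD culture 3, at 136, and read 5.65, 5.19, 6.03 and 5.21 in NOD cultures 1 to 4 and 4.98, 5.17, 5.29 and 5.28 in BALB/c cultures 1 to 4. Both probes were highest in NOD culture 3. A signal not well above background bounds the level from above only, and only for transcripts that the probe reads. The sources used here do not say where in the gene these probes lie, so no bound on Cd44 as a whole is drawn. The genes most like the first probe, Utp25 and Dcp1a (root mean square difference 0.09 and 0.11), were not called either (adjusted p = 0.498 and 0.374).

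Of 12 genes listed for proteins that bind CD44 or act on its ligand, 8 had a named probe and all 8 were tested. None was higher and 1 was lower, against 4.15% of named genes called higher and 4.95% called lower, and the median difference was -0.24. The one that fell was Slc9a3r1, for a scaffold protein that binds ezrin, radixin and moesin, which tie CD44 to the actin cytoskeleton. It read 7.95, 8.55, 7.32 and 8.05 in NOD cultures 1 to 4, against 10.21, 9.39, 9.75 and 9.82 in BALB/c cultures 1 to 4. This was a 3.55-fold lower level (difference -1.83 ± 0.29 SE, limma's adjusted p = 0.00676). The call held with any 1 culture left out, but not with the replicate number as a block (adjusted p = 0.0568). The genes of ezrin, radixin and moesin had differences of -0.11, -0.38 and 0.32 and were not called. Spp1, for osteopontin, a CD44 ligand of the bone matrix, averaged 13.72 ± 0.10 in NOD and 13.90 ± 0.05 in BALB/c (SD, n = 4 each), without overlap but not called (adjusted p = 0.509).

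Among 15 listed adhesion molecules near Alcam, most of them of the immunoglobulin superfamily, 8 were tested, of which 1 rose and 2 fell (median difference 0.08), against 4.15% of named genes called higher and 4.95% called lower. The inhibitory ligand gene Cd200 was 2.05-fold higher (limma's adjusted p = 0.0201), a call lost without NOD culture 1, 2 or 4 or BALB/c culture 1 (differences 0.95 to 1.03, adjusted p 0.0631 to 0.0874). F11r, the junctional adhesion molecule JAM-A, was detected on no NOD array and read 8.96, 7.37, 6.34 and 8.08 in BALB/c cultures 1 to 4. As processed here it was at least 4.03-fold lower in NOD (adjusted p = 0.0161). It passed the detection filter through BALB/c alone, and without that filter it was not called (adjusted p = 0.0599). Its call was also lost without NOD culture 1, 3 or 4 (adjusted p 0.0549 to 0.0667) and when no detection p-value was set to 0 (-0.52, adjusted p = 0.173). With any 1 BALB/c culture left out F11r missed the detection filter, so that was not tested. Nectin2 was 3.26-fold lower by its brighter probe (adjusted p = 0.00880), but its other tested probe gave 0.25 (adjusted p = 0.471), so the probes disagreed.

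**Figure D4:**
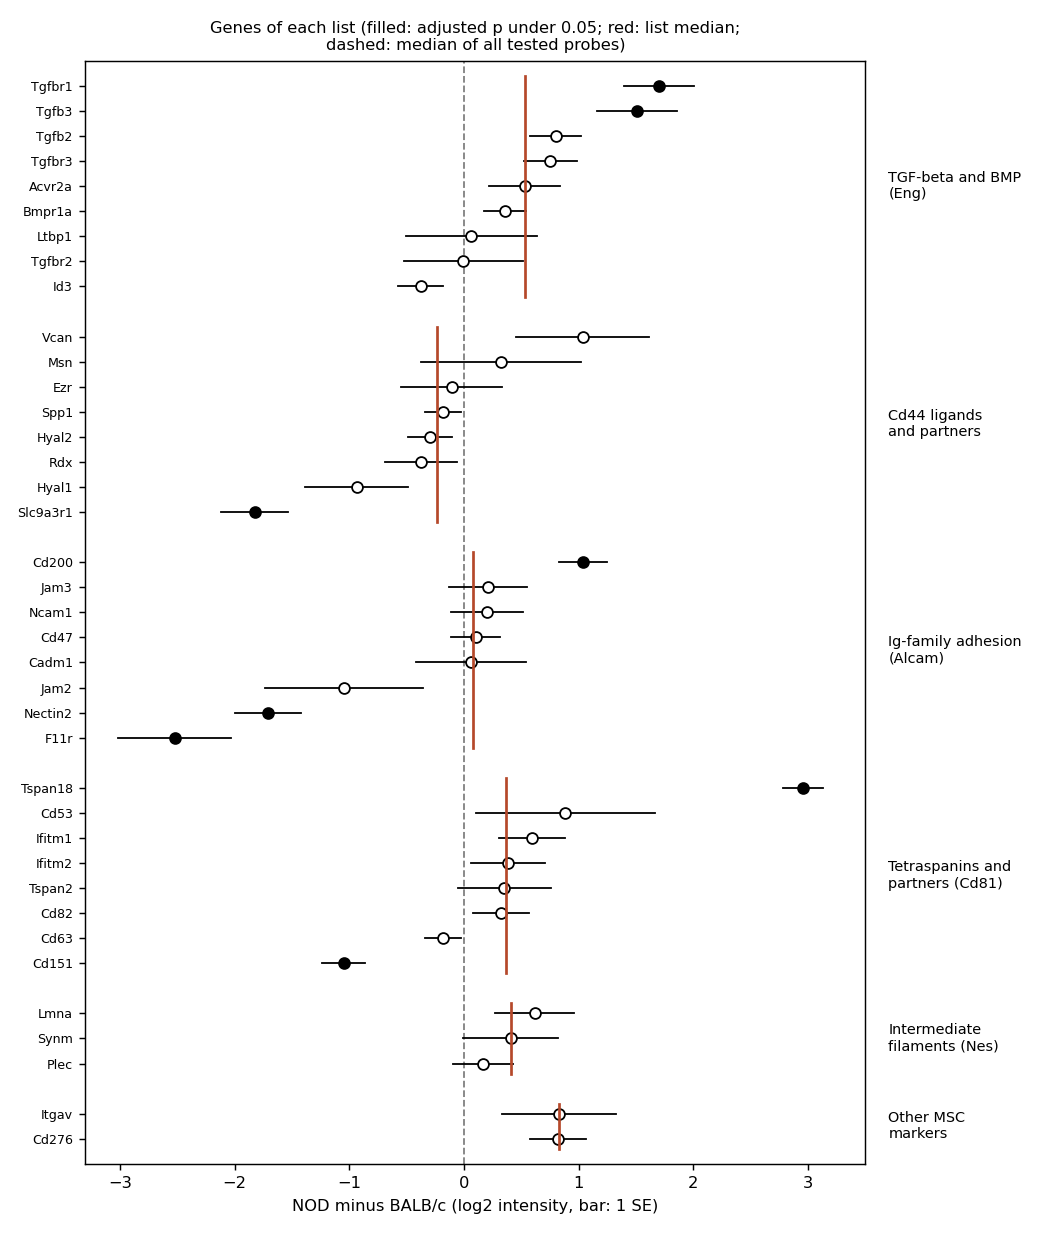
NOD minus BALB/c difference in log2 intensity (horizontal axis, bar 1 SE) of the tested genes in 6 lists grouped around the members, with filled symbols for adjusted p under 0.05, a red line for each list's median and a dashed line for the median of all tested probes. The called genes lie on both sides of 0: Tgfbr1, Tgfb3, Cd200 and Tspan18 above, and Slc9a3r1, Nectin2, F11r and Cd151 below.

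Other surface markers of MSC were little covered. Of 17 listed, 3 had a named probe. The integrin chain gene Itgav and Cd276 (B7-H3) were tested and had differences of 0.83 and 0.82, neither called (limma's adjusted p = 0.331 and 0.0796), although the strains did not overlap for Cd276. Ngfr (CD271) was detected on no array. Of 9 niche factor genes 3 had a named probe. Cxcl12, the chemokine that holds blood stem cells in marrow, was detected on no array. Ngfr and Cxcl12 were each read by 1 named probe, so this bounds only the transcripts that the probe reads. Il7, a lymphocyte growth factor, was the one tested. It was detected on no NOD array and read 6.95, 8.41, 8.40 and 6.64 in BALB/c cultures 1 to 4. As processed here it was at least 3.795-fold lower in NOD (adjusted p = 0.0120). It passed the detection filter through BALB/c alone, and the call was kept without that filter (adjusted p = 0.0450). The call was lost without NOD culture 4 (-2.30, adjusted p = 0.0562) and when no detection p-value was set to 0 (-0.44, adjusted p = 0.122). Without any BALB/c culture Il7 missed the detection filter, so whether the call rests on 1 of them, such as culture 2 or 3, was not tested. In the stromal list, 2 of 5 tested genes rose and none fell, against 4.15% of named genes called higher and 4.95% called lower. They were Prrx1 and the type I collagen gene Col1a2, which was 2.32-fold higher (adjusted p = 0.0470). The Col1a2 call was lost without any 1 of NOD cultures 1 to 4 or BALB/c cultures 1 and 4 (differences 1.14 to 1.32, adjusted p 0.0891 to 0.124) and without the detection filter (adjusted p = 0.108). Of the 5, 4 had a positive difference and Dcn a negative one. Its brighter probe had a difference of -0.78 with strains that did not overlap, but was not called (adjusted p = 0.0613). The other tested Dcn probe gave 0.21 (adjusted p = 0.898).

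**Figure D5:**
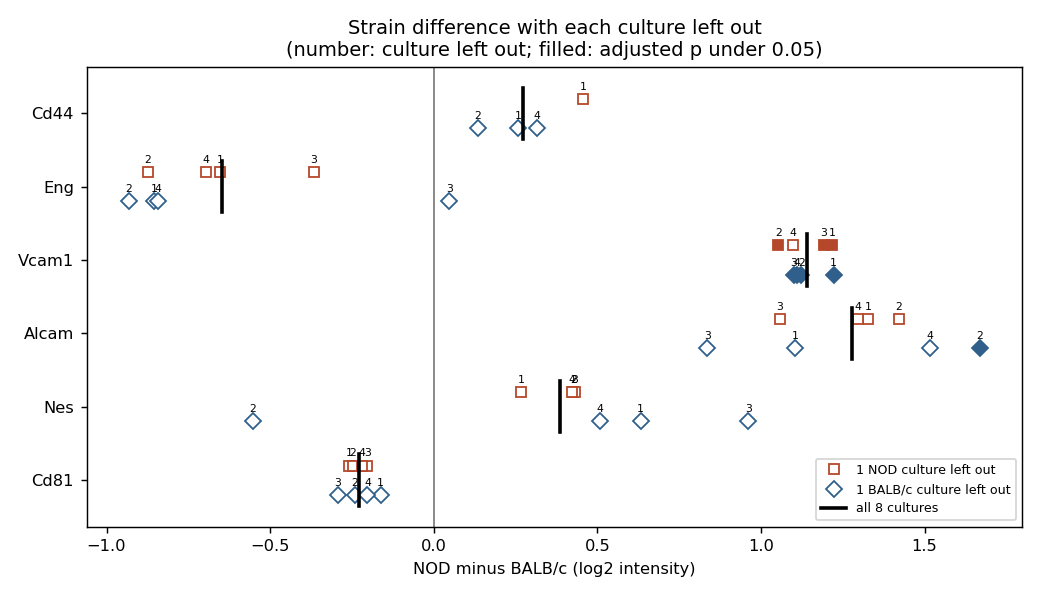
NOD minus BALB/c difference in log2 intensity (horizontal axis) of each gene's brightest probe with all 8 cultures (black line) and with 1 NOD culture (squares) or 1 BALB/c culture (diamonds) left out, filled where the adjusted p was under 0.05. Vcam1 keeps to 1.05 to 1.22, Eng crosses 0 without BALB/c culture 3, Nes crosses 0 without BALB/c culture 2, and Cd44 is absent where it missed the detection filter.

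The promoters of the steadiest member and of those that varied most among the BALB/c cultures are shown for the sequence context of these differences. Of the 6 genes, 5 had an entry among RefSeq-derived windows of assembly GRCm38.p6, which run from 250 bases before to 50 bases after the gene's start. Each was searched on both strands for the GC box GGGCGG, the TATA box TATAAA and the AP-1 motif TGANTCA, and matches are in capitals. The windows lie at chr7:143052500-143052799 on the + strand for Cd81, at chr3:87970843-87971142 on the + strand for Nes and at chr2:32646345-32646644 on the + strand for Eng.
Cd81: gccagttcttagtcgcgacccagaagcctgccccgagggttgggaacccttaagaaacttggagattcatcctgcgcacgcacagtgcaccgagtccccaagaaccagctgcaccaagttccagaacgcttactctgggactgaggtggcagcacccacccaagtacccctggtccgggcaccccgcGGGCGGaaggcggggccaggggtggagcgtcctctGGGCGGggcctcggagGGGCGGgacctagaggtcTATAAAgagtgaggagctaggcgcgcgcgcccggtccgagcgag
Nes: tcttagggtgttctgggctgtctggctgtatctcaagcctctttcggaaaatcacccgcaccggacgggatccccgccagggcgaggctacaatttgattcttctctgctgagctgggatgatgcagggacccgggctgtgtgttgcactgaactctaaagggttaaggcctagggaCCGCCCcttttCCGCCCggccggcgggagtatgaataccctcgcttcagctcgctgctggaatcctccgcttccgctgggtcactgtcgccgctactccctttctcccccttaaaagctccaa
Eng: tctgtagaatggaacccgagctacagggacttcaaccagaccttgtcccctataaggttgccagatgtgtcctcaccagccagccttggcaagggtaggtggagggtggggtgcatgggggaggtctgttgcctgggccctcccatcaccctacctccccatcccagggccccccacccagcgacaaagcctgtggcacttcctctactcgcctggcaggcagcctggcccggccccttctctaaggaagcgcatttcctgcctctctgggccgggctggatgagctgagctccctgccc

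The Cd81 window held 3 GC boxes and 1 match to TATAAA, the Nes window 2 GC boxes, and the Eng window none of the 3 motifs. The TATAAA of Cd81 begins 6 bases after the annotated start, so it does not lie upstream of that start. The Alcam window held 2 GC boxes and that of Cd44 held 1, beginning 3 bases after the start. Among all 32851 windows of this length, 35.7% held a GC box, 13.6% the TATA box and 7.81% the AP-1 motif. The ratio of observed to expected CpG was 0.713 for Cd81, 0.702 for Nes, 0.688 for Alcam, 0.246 for Cd44 and 0.202 for Eng, with a median of 0.384 over all windows. These matches describe the letters of the reference strain only.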

How the data were processed

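The deposited table gave, per the file headers, the non-normalized mean signal intensity and a detection p-value per probe and array; per the labels' protocols, biotinylated cRNA was hybridised to Illumina arrays. A second deposited table held the authors' normalized intensity on a linear scale for these arrays, used for marker sums and as an alternative. The sources used here name no array model, software or normalization method.

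Probes were named where their identifier held a zero-padded gene ID listed in RefSeq (GRCm38.p6). Of 9995 such numbers 81.1% were listed, against 11.3% of 16482 unpadded numbers, and 9796 probes and 8102 genes were named. By these names 7 of 343 olfactory receptor probes were detected on at least 4 arrays, against 72 of 79 ribosomal protein probes.

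Background correction was by normexp (limma 3.58.1 in R 4.3.3), from the negative controls implied by the detection p-values (steps of 1 in 1603; the 4 or 5 bright probes per array with a p-value below 1 step were set to 0), an offset of 16 was added, and log2 values were quantile normalized. Probes detected (p under 0.05) on at least 4 of 8 arrays entered lmFit and eBayes, and an adjusted p under 0.05 was called. The brightest probe stood for a gene. A bound ("at least") sets the brighter strain against a floor, on each array whichever was brighter, the probe itself or the detection edge (the dimmest detected probe that was brighter than every undetected one; on 6 arrays 1 or 2 dimmer probes carried a low p-value). Such a bound holds for this processing only. With an offset of 50 the fold itself was 4.33 for Tspan18, 3.53 for F11r and 3.21 for Il7, below each bound. The test was checked on simulated data with independent cultures and, for each probe, the same spread in both strains. That check does not cover the wider spread of the BALB/c cultures (median SD 0.48, against 0.29 in NOD).

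Members and lists were chosen with earlier results of these data known. All member probes are named, and of each list the called genes, at most 4 by size, the tested leukocyte genes, and the 2 genes most like each member that ranged over at least 1 log2 unit. Some genes were named beyond this rule after their values were seen: Tgfb2, Tgfbr2, Tgfbr3, Id3, Tnfrsf1a, Itgav, Cd276, Spp1, Dcn, Lmna, Plec, Synm, Csf1r, the genes of ezrin, radixin and moesin, genes with a culture that stands apart (Ltbp1, Jam2, Tspan2, Col1a1), and genes not detected. The number of arrays limits the precision.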

Additional observations from a re-analysis of the deposited data

Results flagged for a closer look

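In a group of 4 cultures, a single one was checked for a gap to its nearest neighbour that exceeds Dixon's 95% critical value, over the 8 member probes, and over 56 other genes (all tested genes of the lists and the genes most like a member). Of 128 groups 11 exceeded it, and chance gives about 1 in 20 for independent groups. Genes most like a member were chosen for its pattern, so these groups are not independent and the excess was not tested. Among members, Eng in BALB/c culture 3 stood apart at 10.05, with the next culture at 7.37. The first Nes probe in NOD culture 1 stood apart at 10.57, with the next at 10.10 and the other NOD cultures nearly equal.

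Among the other genes, most gaps were in BALB/c culture 3. It was the highest BALB/c culture for the tetraspanin gene Tspan2 at 9.19 (next 7.55). The same held for Zfp184 at 8.86 (next 6.70), but that gene was chosen for its likeness to Eng, so its gap adds nothing. It was the lowest for Tgfb3 at 8.74 (next 10.04), for Col1a2 at 8.08 (next 9.27), for the latent TGF-beta binding protein gene Ltbp1 at 9.003 (next 11.33) and for the junctional adhesion molecule gene Jam2 at 5.68 (next 8.58). In NOD, culture 1 was the lowest for Rdx at 9.91 (next 10.10) and for Col1a1 at 13.74 (next 14.12), and culture 3 was the highest for Tgfb2 at 12.79 (next 12.31).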

How the results depend on the processing

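The count of 1512 called probes was 776 among probes detected on all 8 arrays, 5984 without BALB/c cultures 2 and 3, 9196 with array weights and 460 to 3426 with 1 culture left out (3426 without BALB/c culture 2, 2435 without culture 3, and 460 to 758 without any 1 of the other cultures). The lowest count, 460, was without NOD culture 4. The weights were lowest for BALB/c cultures 2 and 3, at 0.177 and 0.242, and highest for NOD culture 4. Median scaling moved the median difference to 0.15 and the split to 965 higher and 546 lower, in place of 739 higher and 773 lower. The number of member genes called, 1 of 6, was 3 with array weights and 0 to 2 with 1 culture left out. Vcam1 was 1.08 (adjusted p = 0.0534) without BALB/c cultures 2 and 4, a choice made after seeing the data, and 1.05 to 1.22 with 1 culture left out. Alcam became called with array weights (1.04, adjusted p = 0.0178) and without BALB/c cultures 2 and 4 (2.22), ran from 0.84 to 1.67 with 1 culture left out, and was 0.34 with the detection p-values as deposited. Cd81 became called with array weights (-0.32, adjusted p = 0.0434). Eng turned to 0.047 without BALB/c culture 3 and ran from -0.93 to 0.047 with 1 culture left out. Nes turned to -0.11 with array weights, -0.17 without BALB/c cultures 2 and 3 and -0.83 without cultures 2 and 4, and ran from -0.55 to 0.96 with 1 culture left out. Where leaving out samples was not the setting, the cause was not tested. Cd44 was called under none of 14 settings that tested it.

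Equal replicate numbers did not pair the cultures: deviations from the strain means correlated at -0.33, -0.64, -0.05 and 0.08 for numbers 1 to 4. With the replicate number as a block, 513 probes and 0 member genes were called, Vcam1 with the same difference of 1.14 at adjusted p = 0.0821.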
